A study of Mus musculus with 24 samples.

Results

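The Hsp70 genotype was carried in this series by brains with and without a second genotype, aSYN, and the comparison described here set every carrier against every non-carrier. It took in 24 of 24 arrays: 12 carriers, titled Hsp70 (6) or aSYN/70 (6, written aSYN/Hsp70 from here on), and 12 non-carriers, titled wt (6) or aSYN (6). Each array held RNA from a whole mouse brain at 4 months. The labels do not spell out aSYN, and they name no promoter, species or founder line for either genotype. Whether each sample is a different animal is not stated, and the spread behind every p-value is that between these samples, which may be technical. The difference between carriers and non-carriers was taken within brains without aSYN (Hsp70 minus wt) and within brains with aSYN (aSYN/Hsp70 minus aSYN), and the mean of both is the main effect of Hsp70. Values are log2 intensities on a scale normalised between arrays, and a difference is carriers minus non-carriers.

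HSP70 proteins are chaperones that bind exposed hydrophobic stretches of unfolded or aggregating proteins, and they release them in a cycle driven by ATP. J-domain proteins deliver substrates and speed ATP hydrolysis, nucleotide exchange factors such as the BAG proteins reset the cycle, and the ubiquitin ligase CHIP can pass the substrate on for degradation. The stress-inducible members are switched on by the heat shock factor HSF1, which binds repeated nGAAn units in their promoters, while Hspa8 supplies most of the constitutive HSP70 of brain. In models of protein aggregation, HSP70 is known for its action on misfolded alpha-synuclein.

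The mouse genes that encode inducible HSP70, Hspa1a and Hspa1b, have nearly the same promoter, which is shown because both genes were read as a check of the label. The 250 bases before the start (RefSeq, GRCm38.p6) lie at chr17:34972157-34972406 for Hspa1a and at chr17:34959239-34959488 for Hspa1b, both on the minus strand. Capitals mark a pair of HSF1 units, searched as GAANNTTC on both strands.
Hspa1a: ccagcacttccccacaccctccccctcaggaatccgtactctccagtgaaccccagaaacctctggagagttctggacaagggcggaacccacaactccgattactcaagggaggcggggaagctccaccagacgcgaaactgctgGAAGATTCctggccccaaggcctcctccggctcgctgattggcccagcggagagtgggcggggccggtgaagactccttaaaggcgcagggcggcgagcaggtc
Hspa1b: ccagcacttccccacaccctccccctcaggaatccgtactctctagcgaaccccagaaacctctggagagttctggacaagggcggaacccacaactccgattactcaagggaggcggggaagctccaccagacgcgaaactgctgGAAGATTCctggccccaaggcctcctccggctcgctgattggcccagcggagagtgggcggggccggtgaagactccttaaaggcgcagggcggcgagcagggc
These stretches shared 247 of 250 positions and differed at 3, and each held the pair in the same surroundings. The pair was found in 2199 of 32851 RefSeq promoters of this length (6.69%). Among HSP70 family genes with a promoter in the table it was in those of Hspa1a and Hspa1b, 2 of 13 promoters. Of the 20 genes of smallest p described below, promoters were found for 6 named as higher and 8 named as lower. The pair was in 0 of these 17 promoters, and the other named genes were not searched. A match is a description of letters, and no match says only that the letters are not in the window.

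None of the 4 mouse probe sets of these genes separated carriers from non-carriers. Hspa1a ran from 10.25 over a median of 11.12 to 11.28 in non-carriers and from 7.86 over 11.04 to 11.53 in carriers, a difference of -0.28 (exact stratified permutation test, two-sided, p = 0.476). The 3 probe sets of Hspa1b differed by -0.02, 0.39 and 0.26 (p = 0.944, 0.205 and 0.275 by the same exact test). Carriers and non-carriers overlapped in each of them. The lowest Hspa1a value belonged to aSYN/Hsp70 replicate 4, and without the 4 arrays described next the difference was 0.0034. Because both genes are nearly identical their probe sets may share signal, and whether mouse probe sets read a transgene depends on its sequence, which was not analysed here, so these values check the label in neither direction.

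Neuronal, glial and myelin markers were bright (Snap25 averaged 16.74 and Mbp 17.05 log2 units), while Alb of liver and Myh6 of heart averaged 7.38 and 6.53 and were too dim to be tested. Array medians ran from 481 to 893 intensity units in carriers and from 458 to 581 in non-carriers. Below a limma array weight of 0.5 lay 4 arrays, Hsp70 replicates 3 and 6 and aSYN/Hsp70 replicates 3 and 4, and every one of them was a carrier. Xist and Y-linked probe sets marked 5 of 12 carriers and 8 of 12 non-carriers as female, and the log2 excess of 3' over 5' control probes, a gauge of RNA quality, was 0.88 ± 0.14 and 0.91 ± 0.12 (SD, n = 12 each; exact permutation p = 0.624). Within aSYN brains this excess was 0.85 ± 0.09 in carriers and 0.97 ± 0.08 in non-carriers (SD, n = 6, exact permutation p = 0.0368). The part of sex and RNA quality in the results was not tested beyond the alternatives given with them.

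The main effect of Hsp70 passed the test for no gene. Of 27022 probe sets, 0 (0%) had a limma adjusted p under 0.05, and the smallest adjusted p was 0.0833. Unadjusted p-values under 0.05 were found for 4777 (17.7%), where 1351 would be 5% of the probe sets. Of these, 2135 (7.9% of all tested) were higher in carriers and 2642 (9.78%) lower. The share of higher values among them was 44.7%, and it was 54.8% without quantile normalisation, so the balance of directions turned with the scaling. In 0 probe sets (0%) did all carriers lie above or below all non-carriers.

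**Figure D1:**
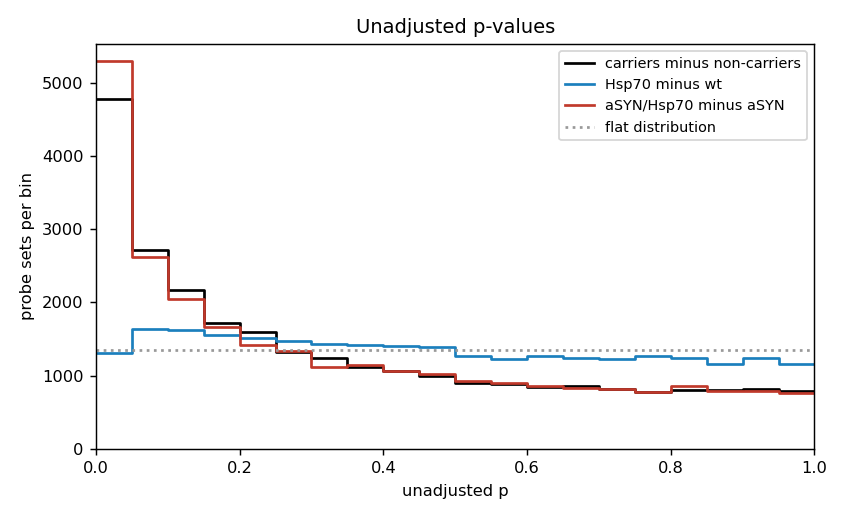
Number of probe sets (y axis) by unadjusted limma p in bins of 0.05 (x axis) for the main effect (black), Hsp70 minus wt (blue) and aSYN/Hsp70 minus aSYN (red), with the flat distribution dotted at 1351. The first bin holds 4777, 1305 and 5303 probe sets in this order.

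Fewer small p-values were found without the 4 arrays of low weight, in a fit that also has fewer arrays. Without them 2166 probe sets (8.02%) had an unadjusted p under 0.05, and 1 probe set, which carried no gene name, was called. Leaving out single arrays changed the count of calls too. It was 16 (7 higher) without aSYN/Hsp70 replicate 6, 2 (Mboat2 and Ogt) without Hsp70 replicate 2, 1 (Rorb) without wt replicate 2, 1 (Mboat2) without wt replicate 5, and 0 without any other array. The genes named next are the 10 of smallest p in each direction, and their values describe the probe sets that lay closest to a call.

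Mboat2, an acyltransferase that remodels membrane phospholipids, had the smallest p. It ran from 12.40 over a median of 12.67 to 13.21 in wt, from 12.31 over 12.62 to 12.71 in aSYN, from 12.86 over 13.07 to 13.36 in Hsp70 and from 13.09 over 13.22 to 13.40 in aSYN/Hsp70. All 12 carriers lay above the non-carrier median and 6 above the highest non-carrier, and 2 non-carriers, wt replicates 2 (12.91) and 5 (13.21), reached into the carriers' range. The difference was 0.51 (SE 0.08, 1.43-fold, limma adjusted p = 0.0833), and a dimmer second probe set of the gene differed by 0.33 (SE 0.12, limma adjusted p = 0.209).

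Rorb, a nuclear receptor that marks layer 4 neurons of the cortex, was lower by about as many SE. Its named probe set ran from 10.94 over 11.57 to 11.87 in wt, from 11.26 over 11.79 to 11.97 in aSYN, from 10.21 over 10.93 to 11.18 in Hsp70 and from 10.56 over 10.79 to 11.16 in aSYN/Hsp70. All 12 carriers lay below the non-carrier median and 7 below the lowest non-carrier. The difference was -0.74 (SE 0.13, 1.67-fold lower, limma adjusted p = 0.0833). Its other probe sets differed by -0.50 (SE 0.31) and -0.12 (SE 0.19), and the first of these, the brightest, by -0.15 without the 4 arrays of low weight.

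Tac1, which encodes the precursor of substance P and neurokinin A and is strongly expressed in striatal neurons of the direct pathway, had the next smallest p among the genes that were lower. It ran from 13.92 over 14.21 to 14.60 in wt, from 14.17 over 14.24 to 14.45 in aSYN, from 13.62 over 13.76 to 13.97 in Hsp70 and from 13.35 over 13.86 to 14.08 in aSYN/Hsp70. Of the 12 carriers, 10 lay below the lowest non-carrier, as many as for any of the genes named as lower. The difference was -0.47 (SE 0.08, 1.38-fold lower, limma adjusted p = 0.111), with -0.46 without aSYN and -0.47 with aSYN. Without the 4 arrays of low weight it was -0.40 (SE 0.08).

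**Figure D2:**
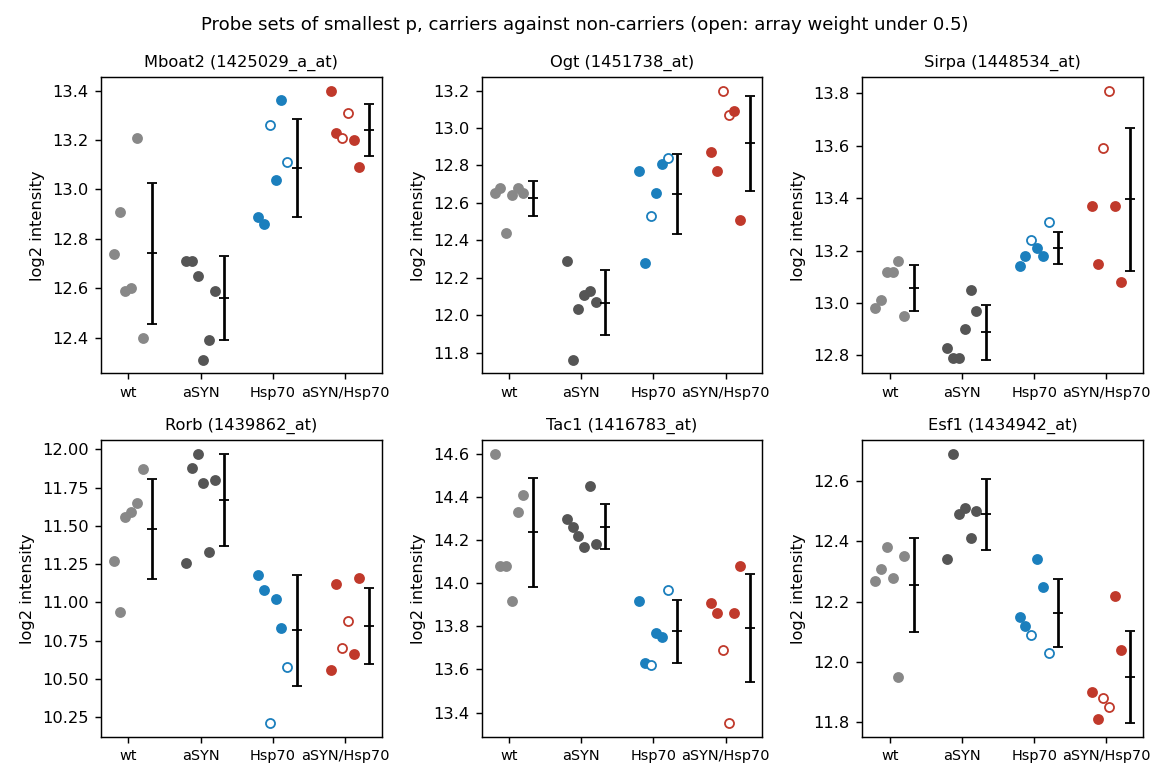
Log2 intensity (y axis) in each of 24 arrays by group (x axis) for the 3 genes of smallest p that were higher in carriers (top) and the 3 that were lower (bottom); bars are the mean ± SD of 6 arrays and open points are the 4 arrays of weight under 0.5. Tac1 reaches at most 14.08 in carriers, and the Ogt medians of wt (12.65) and Hsp70 (12.71) are close.

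The promoter of Tac1 is shown because a cyclic AMP response element there is known background for the gene. It lies at chr6:7554811-7555060 on the plus strand (RefSeq, GRCm38.p6), and capitals mark 2 half-sites, searched as TGACG on both strands.
Tac1: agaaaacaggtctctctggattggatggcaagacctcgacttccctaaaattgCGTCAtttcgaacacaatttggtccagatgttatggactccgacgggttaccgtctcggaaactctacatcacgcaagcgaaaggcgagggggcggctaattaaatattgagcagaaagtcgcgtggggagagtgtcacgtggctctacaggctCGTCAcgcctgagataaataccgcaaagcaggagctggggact
The full element, searched as TGACGTCA, was found 0 times in this stretch and in 508 of 32851 promoters (1.55%). The half-site was found in 5836 of 32851 promoters (17.8%) and in 4 of 22 promoters of the striatal list described below (18.2%). It was found in 3 of the 9 promoters of 8 genes named as lower, and in 2 of the 8 promoters of 6 genes named as higher.

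Of the other genes higher in carriers, 4 with varied roles are given first, not in order of p. Ogt, which adds O-linked GlcNAc to nuclear and cytosolic proteins, differed by 0.44 (SE 0.08, limma adjusted p = 0.118), and Slc35a2, which brings UDP-galactose into the Golgi, by 0.26 (SE 0.06). Bace1, the beta-secretase that cuts the amyloid precursor protein, differed by 0.28 (SE 0.06), and Rnf13, a ubiquitin ligase of endosomes and lysosomes, by 0.30 (SE 0.06). The limma adjusted p was 0.149 for the last 3. Bace1 ran from 11.14 over 11.34 to 11.46 in non-carriers and from 11.24 over 11.63 to 11.84 in carriers, and Slc35a2 from 11.19 over 11.33 to 11.47 and from 11.37 over 11.53 to 11.87. In both of them, 10 of 12 carriers lay above the highest non-carrier, against 4 in Rnf13 and 8 in Ogt.

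Sirpa, the neuronal and myeloid receptor for CD47, ran from 12.79 over 12.98 to 13.16 in non-carriers and from 13.08 over 13.23 to 13.81 in carriers, a difference of 0.33 (SE 0.07), while its dimmer probe set differed by 0.38 (SE 0.09) and its brightest by -0.01 (SE 0.08). Oxr1, which protects neurons against oxidative damage, differed by 0.27 (SE 0.06), and the microtubule-associated kinase gene Dclk1 by 0.27 (SE 0.06). The noncoding snoRNA host gene Snhg10 ran from 9.40 to 10.24 in non-carriers and from 9.84 to 11.20 in carriers, a difference of 0.61 (SE 0.13) with 10 of 12 carriers above the highest non-carrier, and the F-box gene Fbxl6 by 0.36 (SE 0.08). Each of these 5 had a limma adjusted p of 0.149.

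Among the genes lower in carriers, Slc18a2 encodes the vesicular monoamine transporter, which loads dopamine, serotonin and noradrenaline into vesicles. It ran from 9.82 over 10.07 to 10.61 in non-carriers and from 8.85 over 9.42 to 10.10 in carriers, and 9 of 12 carriers lay below the lowest non-carrier. The difference was -0.63 (SE 0.13, limma adjusted p = 0.149).

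Hars2, the mitochondrial histidyl-tRNA synthetase, had the largest difference of the 20 genes, -0.97 (SE 0.20), on a dim probe set. It ran from 8.89 over 9.21 to 9.72 in non-carriers and from 7.01 over 8.43 to 9.21 in carriers, with 10 of 12 carriers below the lowest non-carrier. A brighter probe set differed by -0.09 (SE 0.09), and with 2 to the power 8 in place of 16 added to each intensity the named one differed by -0.59.

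The other genes that were lower ran from -0.54 to -0.32. They were Selenos (-0.52), a selenoprotein of endoplasmic reticulum degradation, Ctsz (-0.43), a lysosomal cathepsin, Kcnc1 (-0.35), the fast potassium channel subunit Kv3.1, Esf1 (-0.32), a nucleolar protein of ribosomal RNA processing, Armcx4 (-0.41) and the secreted C1qtnf12 (-0.54). Their limma adjusted p was 0.149, and 0.169 for C1qtnf12. Without the 4 arrays of low weight Selenos differed by -0.35.

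Other probe sets of these genes often gave smaller differences. Another tested probe set existed for 16 of the 20 genes and a brighter one for 12. In 7 of those 12 the brightest one ran in the same direction. Over 41 other tested probe sets, 22 had the named direction, and 6 of these had an unadjusted p under 0.05. Of all probe sets, 17.7% had such a p in either direction. Opposite to the named direction, it was also under 0.05 for a probe set each of Bace1, Rnf13, Dclk1 and Kcnc1. The brightest of Bace1 differed by -0.25 (SE 0.08) and that of Rnf13 by -0.22 (SE 0.08), opposite to the named ones. The dimmer ones of Kcnc1 differed by 0.01, 0.25 and 0.22, and the 2 brighter ones of Dclk1 by -0.13 and -0.01. The dimmer ones of Dclk1 ran from -0.30 to 0.21, among them -0.27 (SE 0.11). The other tested ones of Slc35a2, all dimmer, ran from -0.27 to 0.15. Brighter ones of C1qtnf12 (0.05), Oxr1 (0.05, SE 0.05), Ogt (0.04 and 0.01) and Selenos (-0.03) differed by little, as did the brightest of Sirpa. Of the 2 brighter ones of Ctsz 1 was lower (-0.25) and 1 higher (0.08). For these genes the value belongs to the named probe set and not to the gene.

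The next question was whether Hsp70 went with the same differences in both backgrounds. Without aSYN, limma called 0 probe sets (0%), and 1305 (4.83%) had an unadjusted p under 0.05. With aSYN it called 194 (0.718%, 134 of them higher), and 5303 (19.6%) had an unadjusted p under 0.05. A test of the difference between the backgrounds called 0 (0%), with 2198 (8.13%) at an unadjusted p under 0.05. It called 81 with array weights and 30 without aSYN/Hsp70 replicate 6. The larger count with aSYN is thus not shown to be a different effect of Hsp70 by the fit of all 24 arrays, and it ranged from 49 to 814 with single arrays left out. It was 89 with the sex covariate, 43 with no filter on dim probe sets, 100 without the 4 arrays of low weight and 24 with the covariate added to that. The gauge of RNA quality also differed within aSYN brains, as given above, and its part in these calls was not tested.

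Of all 27022 probe sets, 61.1% had the same sign in both backgrounds, and 48.1% did without the 4 arrays of low weight. The backgrounds share no sample, so the genes chosen in one can be read in the other. In fits on the 12 arrays of each background alone, of the 100 probe sets with the smallest p between Hsp70 and wt, 67 had the same direction with aSYN, and 44 did without the 4 arrays. Of the 100 with the smallest p between aSYN/Hsp70 and aSYN, 45 had the same direction without aSYN, and 28 did without the 4 arrays. These counts lay near or below the share over all probe sets.

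The 20 named genes had the same sign in both backgrounds, 20 of 20, which their choice by the mean of both favours, and 19 of 20 did without the 4 arrays. With aSYN, 11 of them had a limma adjusted p under 0.05, beside 0.718% of all probe sets. This count came from the same arrays that chose the genes, so it is no independent test. Ogt ran from 12.44 over 12.65 to 12.68 in wt and from 12.28 over 12.71 to 12.84 in Hsp70, a difference of 0.02 (SE 0.11). It ran from 11.76 over 12.09 to 12.29 in aSYN and from 12.51 over 12.97 to 13.20 in aSYN/Hsp70, and these did not overlap, which held with carriers higher for 1.06% of all probe sets. With aSYN the difference was 0.86 (SE 0.11, limma adjusted p = 0.00358), and the difference between backgrounds was 0.83 (SE 0.16, limma adjusted p = 0.0663). The aSYN arrays held the low values, the highest of them reaching the lowest Hsp70 array, and wt, Hsp70 and aSYN/Hsp70 overlapped.

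All named genes but Snhg10 (0.77 without aSYN and 0.46 with it) and Hars2 (-1.09 and -0.84) had differences larger in size with aSYN, some by little. Among them were Mboat2 (0.34 and 0.68), Sirpa (0.16 and 0.51) and Slc18a2 (-0.41 and -0.85). After Ogt, Rnf13, Dclk1 and Esf1 had the smallest p for the difference between backgrounds, and in none of the named genes did it pass the test. Rnf13 differed by 0.01 without aSYN and 0.60 with it (difference 0.59, SE 0.13, limma adjusted p = 0.107), Dclk1 by 0.05 and 0.48 (limma adjusted p = 0.249 for the difference), and Esf1 by -0.09 and -0.54 (limma adjusted p = 0.264). For Rnf13 the 6 aSYN arrays ran from 12.96 to 13.17, below the lowest array of each other group. Without the 4 arrays of low weight its difference without aSYN was -0.04. Tac1, Oxr1 (0.26 and 0.28), Fbxl6 (0.35 and 0.36) and Rorb (-0.66 and -0.82) differed by similar amounts in both backgrounds.

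**Figure D3:**
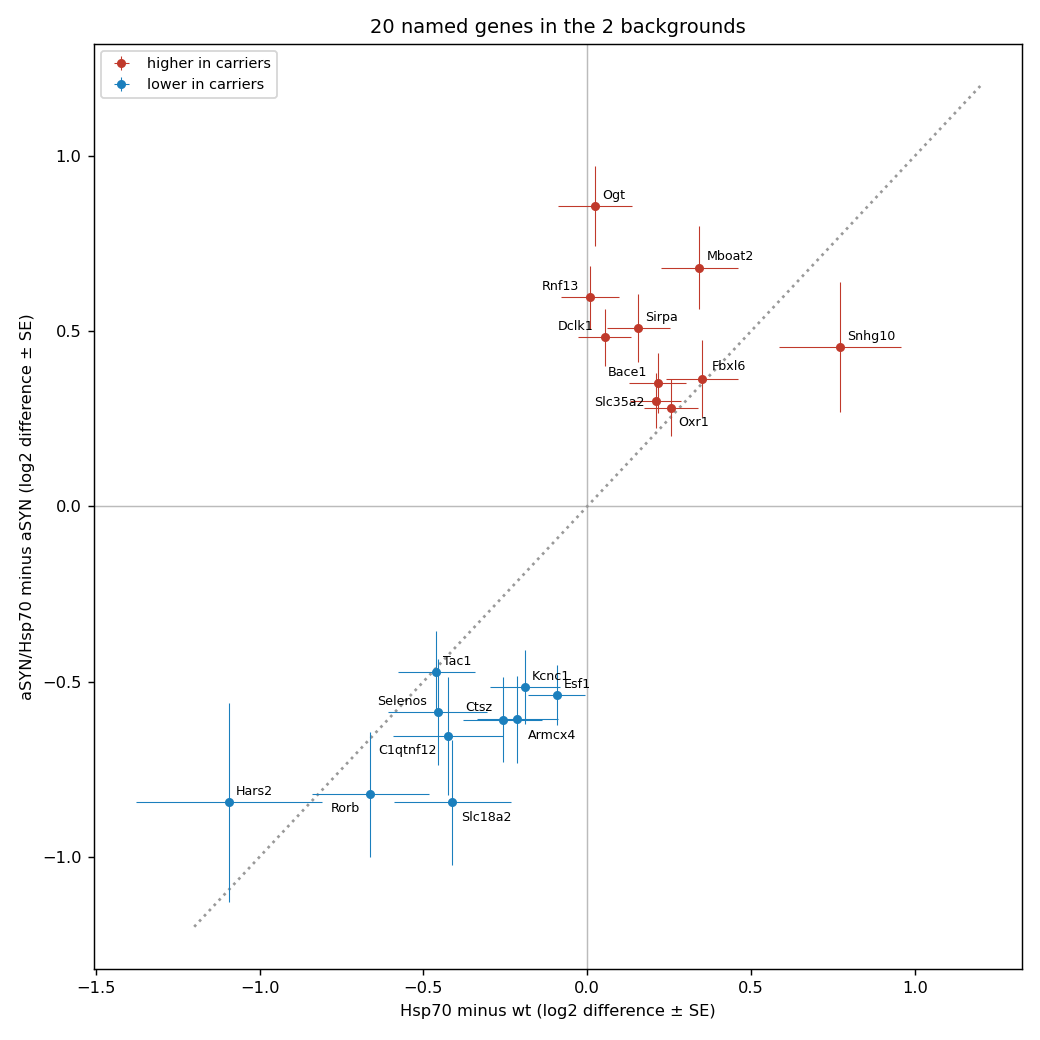
Log2 difference Hsp70 minus wt (x axis) against aSYN/Hsp70 minus aSYN (y axis) for the 20 named genes, with SE bars; red genes were higher and blue genes lower in carriers, and the dotted line marks equal differences. Ogt, Rnf13 and Dclk1 lie near 0 on the x axis, while Tac1, Oxr1 and Fbxl6 lie near the line.

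Gene lists were read on the brightest tested probe set of each gene, beside 12929 genes of which 51.4% were lower and 48.6% higher in carriers, with a median of -0.01, 9.02% lower at an unadjusted p under 0.05 and 8.86% higher. No list member was called after adjustment over all probe sets. Lists and members were chosen with earlier results of these data known. Their counts beside the share of all genes thus describe these arrays and are no independent test. Genes of striatal projection neurons, the GABA neurons that receive dopamine, had 15 of 16 measured members lower in carriers and a median of -0.15, and 8 of 16 (50%) were lower at an unadjusted p under 0.05. Each of the 16 was lower without aSYN and 12 with aSYN, against 48.8% and 52.2% of all genes. In a whole brain, fewer cells of a type and less RNA per cell cannot be told apart.

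Both output pathways of the striatum were represented. Of the direct pathway, besides Tac1, the dopamine D1 receptor gene Drd1 ran from 12.43 over 12.60 to 12.86 in non-carriers and from 12.08 over 12.29 to 12.66 in carriers (-0.31, SE 0.07), with 8 of 12 carriers below the lowest non-carrier. Pdyn, the dynorphin precursor, differed by -0.39 (SE 0.13). Of the indirect pathway, the receptor gene Gpr6 ran from 11.24 over 11.68 to 12.01 and from 10.09 over 11.17 to 11.78 (-0.52, SE 0.17), while the D2 receptor gene Drd2 differed by -0.15 (SE 0.08) and the enkephalin gene Penk by -0.07 (SE 0.08).

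Signalling and identity genes of the same neurons were lower too, with 1 exception among those named here. Adcy5, their main adenylyl cyclase, differed by -0.15 (SE 0.05), the dopamine-regulated phosphatase inhibitor Ppp1r1b by -0.18 (SE 0.09), and the transcription factors Rarb, Bcl11b and Foxp1 by -0.17, -0.14 and -0.20. The phosphodiesterase Pde10a was the member that was not lower, at 0.03 (SE 0.06). The mean over the 16 genes ran from 12.97 over 13.16 to 13.31 log2 units in non-carriers and from 12.82 over 12.96 to 13.11 in carriers, so the groups overlapped.

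Without the 4 arrays of low weight, 16 of 16 were lower with a median of -0.18, and 11 had an unadjusted p under 0.05, while 49.5% of all genes were lower and 4.18% were so at that p. With single arrays left out the median ran from -0.17 to -0.14 and 14 or 15 members were lower. With the sex covariate it was -0.15. Tac1 itself belongs to this list and was also among the genes of smallest p.

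**Figure D4:**
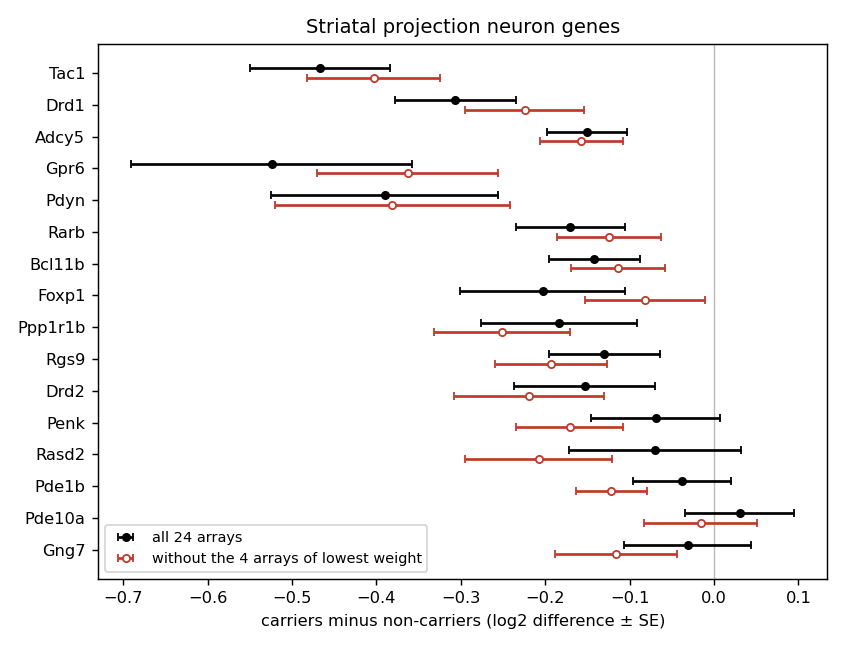
Log2 difference of carriers minus non-carriers (x axis, bars are SE) for 16 striatal projection neuron genes (y axis) over 24 arrays (black) and without the 4 arrays of lowest weight (open red). Over 24 arrays 15 genes lie below 0, and without the 4 arrays 16 do.

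Lists of other brain regions and cells also leaned lower, several of them less so without the 4 arrays. Of 12 thalamus genes 10 were lower, the median was -0.24, and 6 had an unadjusted p under 0.05, among them Prkcd (-0.25, SE 0.08) and the vesicular glutamate transporter Slc17a6 (-0.27, SE 0.11). Without the 4 arrays their median was -0.13 and Slc17a6 differed by -0.16. Of 14 genes of oligodendrocytes and myelin 13 were lower, with a median of -0.12, led by Mal (-0.22), Olig1 (-0.15) and Cnp (-0.18), while Mbp differed by -0.02 (SE 0.05). Mal differed by -0.13 and Cnp by -0.08 without the 4 arrays. Choroid plexus genes were lower for 8 of 9 with a median of -0.21, which was -0.02 without the 4 arrays and -0.10 without aSYN/Hsp70 replicate 4, and the abundant transthyretin gene Ttr differed by -0.09 (SE 0.06).

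Genes of midbrain dopamine neurons did not share one direction. Besides Slc18a2, the retinal dehydrogenase gene Aldh1a1 (-0.32, SE 0.11) and the GDNF receptor gene Ret (-0.51, SE 0.19) were lower, and 7 of 9 members were lower in all with a median of -0.17. Ret differed by -0.32 (SE 0.18) without the 4 arrays. Th, the rate-limiting enzyme of dopamine synthesis, ran from 10.36 over 10.89 to 11.30 in non-carriers and from 10.77 over 11.16 to 11.86 in carriers (0.29, SE 0.14). The dopamine transporter gene Slc6a3 differed by -0.05 (SE 0.14). Th also belongs to the olfactory bulb list, in which 5 of 8 members were higher with a median of 0.25, and which stood at -0.08 without aSYN and 0.46 with it, and at 0.09 without Hsp70 replicate 5. The 8 members of that list were all higher without the 4 arrays of low weight, with a median of 0.52, and with array weights 8 of 8 with 0.47.

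Other cell types were divided. Of 13 endothelial genes 7 were higher, and 5 had an unadjusted p under 0.05 and were higher, among them the tight junction gene Cldn5 (12.08 over 12.73 to 13.25 in non-carriers, 12.70 over 13.15 to 13.64 in carriers; 0.49, SE 0.12) and Cdh5 (0.43, SE 0.15). The glucose transporter of the blood-brain barrier, Slc2a1, was lower (-0.22, SE 0.07). Meningeal and fibroblast genes were higher for 10 of 12 with a median of 0.16, and 0.07 without the 4 arrays. Microglial genes were divided 7 higher to 8 lower, and Laptm5 (-0.52, SE 0.12) had the smallest p among them.

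Astrocyte genes were lower for 9 of 14 with a median of -0.04, which turned to 0.03 without quantile normalisation. Excitatory neuron genes of cortex and hippocampus had a median of 0.00 (9 of 15 lower), and those of cortical GABA neurons 0.00 (6 of 13 lower). Without the 4 arrays of low weight these medians were -0.08 and -0.05. Cerebellar genes were lower for 9 of 11 and hypothalamic peptides for 7 of 10. Their medians of -0.12 and -0.15 were -0.0011 without wt replicate 1 and -0.04 without Hsp70 replicate 2. Pituitary hormone genes ran far apart between arrays. Prl spanned 5.92 to 16.40 in non-carriers and 6.46 to 12.04 in carriers. Of 2 red blood cell genes measured, 1 was higher and 1 lower.

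**Figure D5:**
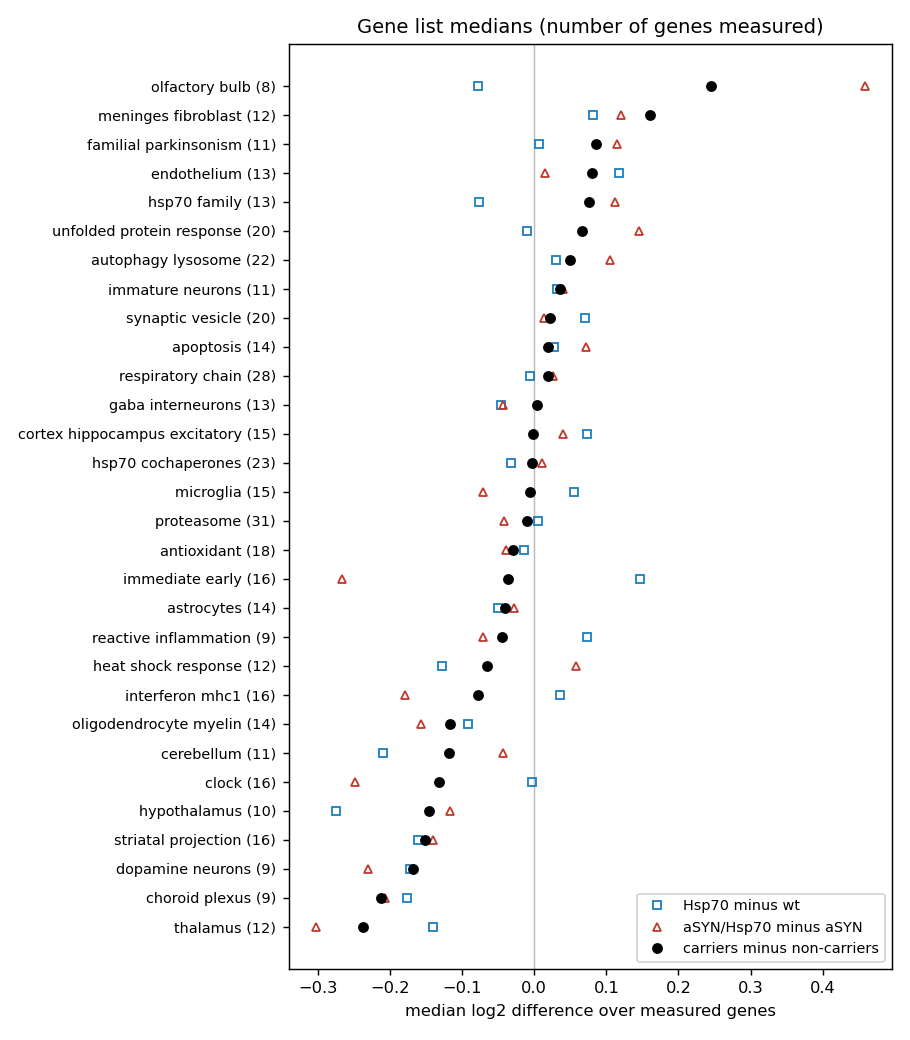
Median log2 difference (x axis) over the measured genes of each list with 8 or more of them (y axis, number in parentheses) for the main effect (black), Hsp70 minus wt (blue squares) and aSYN/Hsp70 minus aSYN (red triangles). The striatal and myelin lists lie below 0 in all 3, and the olfactory bulb, immediate early and heat shock lists lie on opposite sides of 0 in the 2 backgrounds.

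The chaperone system that HSP70 belongs to was divided. Of 13 measured HSP70 and HSP110 family genes 7 were higher and 6 lower, with a median of 0.08 that was 0.01 without the 4 arrays and -0.01 without Hsp70 replicate 3. The 3 of smallest p were lower: Hspa4 (-0.16, SE 0.05), an HSP110 exchange factor, Hspa14 (-0.19, SE 0.07), which acts at the ribosome, and Hspa9 (-0.13, SE 0.05), the mitochondrial member. Hspa14 differed by -0.09 (SE 0.06) without the 4 arrays. Hspa8 ran from 16.84 over 17.14 to 17.28 in non-carriers and from 16.61 over 17.07 to 17.28 in carriers (-0.05, SE 0.07), and Hspa5, the member of the endoplasmic reticulum, differed by 0.17 (SE 0.11).

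Co-chaperones were divided 9 higher to 14 lower. Bag1, an exchange factor that links HSP70 to the proteasome, differed by -0.16 (SE 0.05), Dnajc7 by -0.20 (SE 0.08), the exchange factor gene Hspbp1 by 0.13 (SE 0.06) and Bag3, which directs substrates to autophagy, by 0.41 (SE 0.19). Stub1, which encodes CHIP, differed by 0.10 (SE 0.07) and Dnajb1 by -0.07 (SE 0.07). Of 12 other heat shock genes 7 were lower, led by the chaperonin Hspd1 (-0.23, SE 0.09) and the stress-inducible Hsp90aa1 (-0.19, SE 0.08), while their median was -0.13 without aSYN and 0.06 with it. With the 4 arrays of low weight left out, Hspd1 differed by -0.12 (SE 0.06), Hsp90aa1 by -0.08 (SE 0.05), Dnajc7 by -0.13 (SE 0.09) and Bag3 by 0.20 (SE 0.19).

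Routes of protein quality control differed from gene to gene as well. Of 20 unfolded protein response genes 12 were higher, with Pdia4 (0.40, SE 0.14), Dnajc3 (0.24, SE 0.09) and Calr (0.20, SE 0.09) higher and Dnajb9 (-0.32, SE 0.10) and Canx (-0.22, SE 0.09) lower. Of 31 proteasome subunits 16 were lower with a median of -0.01. Among them 7 were lower at an unadjusted p under 0.05, such as Psmd7 (-0.45, SE 0.14) and Psma5 (-0.27, SE 0.09), and 4 were higher, such as Psmb2 (0.21, SE 0.09). Without the 4 arrays Psmd7 and Psma5 both differed by -0.15 and Psmb2 by 0.10, and 23 of 31 were lower with a median of -0.03. Of the unfolded protein response genes, Dnajb9 then differed by -0.16, Canx by -0.08 and Calr by 0.10.

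Autophagy and lysosome genes were higher for 14 of 22 with a median of 0.05, led by Atg7 (0.29, SE 0.10) and Atp13a2 (0.22, SE 0.08), a lysosomal polyamine pump mutated in a familial parkinsonism, while the cathepsin Ctsl was lower (-0.15, SE 0.06). Of 11 genes of familial parkinsonism 8 were higher, and Pink1, the kinase that marks damaged mitochondria, was lower (-0.33, SE 0.15), with 0.01 without aSYN and -0.66 with it. Their median of 0.09 was 0.02 without the 4 arrays. Without these arrays Atg7 differed by 0.18 and Atp13a2 by 0.08. The unadjusted p was under 0.05 over 24 arrays for each gene named in this and the preceding paragraph, and without the 4 arrays for Pdia4, Dnajb9, Psmd7 and Psma5 alone among them.

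Several other lists differed between the backgrounds in their median, a difference that was not tested for a list. Clock genes were lower for 11 of 16 with a median of -0.13, led by the output genes Dbp (-0.48, SE 0.17) and Nr1d2 (-0.33, SE 0.12) and by Per2 (-0.40, SE 0.15), and the median was 0.00 without aSYN and -0.25 with it. Nr1d2 differed by -0.15 and Per2 by -0.21 without the 4 arrays. The labels used here give no time of day for the samples. Immediate early genes were lower for 10 of 16, with a median of -0.04 that was 0.09 without Hsp70 replicate 4, -0.21 with array weights and -0.14 without the 4 arrays, and with 0.15 without aSYN and -0.27 with it. Interferon and MHC class I genes were lower for 10 of 16. Synaptic vesicle genes were higher for 13 of 20 with a median of 0.02, led by Rab3a (0.23, SE 0.07) and Cplx1 (0.21, SE 0.09), which differed by 0.12 and 0.06 without the 4 arrays, and respiratory chain genes for 15 of 28.

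The last 4 lists had medians within 0.05 of 0. Antioxidant genes were lower for 11 of 18 with a median of -0.03, apoptosis genes higher for 8 of 14 (0.02), immature neuron genes higher for 6 of 11 (0.04) and acute inflammation genes lower for 5 of 9 (-0.04, and 0.07 without Hsp70 replicate 6).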

How the data were processed

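The deposited values were linear intensities, 1 per probe set and array, and the program that summarised the probes was not given in the sources used here. Per the labels, samples fell into 4 groups of 6. From the deposited intensities log2(intensity + 16) was computed and quantile normalised. This log2 scale understates differences of dim probe sets. The 64 control probe sets and the 18015 dimmest (40%) were left out. Of 45101 probe sets, 34958 carried 1 gene symbol, 932 several and 9211 none here, and genes were named from the first kind. Of these, 34754 matched a RefSeq table by gene ID.

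The main effect was a contrast in a fit with a mean per group (limma 3.58.1, lmFit and eBayes, in R 4.3.3), with Benjamini-Hochberg adjustment over 27022 probe sets, called at 0.05. Every adjusted p is limma's, and unadjusted p-values are from the same fit. The fit was tested on simulated data, in which the noise of a probe set was independent and of the same spread in every array. The simulation thus does not cover arrays of low weight. Hspa1 probe sets were compared by relabelling within aSYN and non-aSYN brains (853776 relabellings, smallest possible p 2.343e-06). Named genes were the 10 of smallest p in each direction, Hspa1a and Hspa1b, and in 33 lists up to 4 members of smallest p. Other list members, such as Penk, Hspa8, Stub1, Slc6a3, Mbp and Ttr, were named after their values were seen, for their known role. Members and lists were chosen with earlier results of these data known.

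Alternatives were no quantile normalisation, offsets of 1 and of 2 to the power 8, no dim filter, an additive model, no aSYN term, the replicate block, array weights, a sex covariate, both, a trended and robust variance, the fit without 4 arrays, and each array left out. After seeing the data, the fit without 4 arrays with the sex covariate was added, as was the comparison of backgrounds without these arrays. The number of arrays limits the precision. Figures used matplotlib 3.10.9.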

Additional observations from a re-analysis of the deposited data

Results flagged for a closer look

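In 10 of 96 groups tested over the named probe sets, 1 array lay far from the other 5 of its group, and chance alone sets apart about 1 group in 20. Among the named genes these were Ogt in wt replicate 3 (12.44, others from 12.64 to 12.68), Bace1 in wt replicate 4 (11.46, others from 11.33 to 11.37), Esf1 in wt replicate 5 (11.95, others from 12.27 to 12.38), Fbxl6 in Hsp70 replicate 1 (10.76, others from 11.17 to 11.26) and Hars2 in aSYN/Hsp70 replicate 4 (7.006, others from 8.392 to 9.212). A probe set of Hspa1b stood at 13.66 in wt replicate 4 (others from 11.55 to 12.11) and at 11.19 in aSYN/Hsp70 replicate 2 (others from 12.45 to 12.82). Hspa1a stood at 10.25 in wt replicate 3, at 10.75 in aSYN replicate 5 and at 7.864 in aSYN/Hsp70 replicate 4, where the other 5 arrays ran from 10.97 to 11.53.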

How the results depend on the processing

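The main effect had 0 calls, and 3 without an aSYN term (Tac1, Mboat2 and Rorb), 4 with a trended and robust variance (Ogt added), 1 without the 4 arrays of low weight and 0 to 16 with single arrays left out. Hsp70 minus wt had 0 calls, and 1 with array weights and the sex covariate and 1 without the 4 arrays with that covariate. The 194 calls with aSYN became 43 with no dim filter, 70 with the replicate block, 324 with array weights, 89 with the sex covariate, 369 with a trended and robust variance, 100 without the 4 arrays and 24 when the covariate was added to that, and 49 to 814 with single arrays left out. The difference between backgrounds had 0 calls, and 5 without quantile normalisation, 8 with an offset of 2 to the power 8, 81 with array weights, 44 with weights and the sex covariate, 24 with a trended and robust variance, 5 without the 4 arrays, 5 with the covariate added, and 0 to 30 with single arrays left out. The cause of these changes was not tested.

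The 20 named probe sets kept their sign in each of 13 settings and of 24 fits with an array left out, which their choice by small p favours. Without the 4 arrays of low weight, 19 of the 20 differences were smaller in size, such as Snhg10 (0.45) and Kcnc1 (-0.26). That of Bace1 was then 0.30. The Hspa1b probe set at -0.02 turned to 0.0627 with array weights and 0.0473 without the 4 arrays, and ran from -0.116 to 0.114 with single arrays left out. Those at 0.39 and 0.26 stayed above 0 throughout, from 0.17 to 0.39 and from 0.04 to 0.26 over the 13 settings. Hspa1a (-0.28) turned to 0.0034 without the 4 arrays and 0.0484 with the sex covariate added, and ran from -0.372 to -0.0056 with single arrays left out. Between samples of the same replicate number the median correlation over 36 pairs was 0.02, against -0.01 between other numbers. Of the 36, 3 exceeded 0.1, and 8 of 24 arrays matched their own number best. Whether samples of a number share a batch was not tested beyond the replicate block. The replicate block gave 0 calls for the main effect.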
